A study of Mus musculus with 188 samples.

Results

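Collagen chains are the products of genes named Col, a type number, a, and a chain number. All genes whose only annotated symbol has that form were taken, which gave 32 genes on 48 probe sets, out of 11725 named genes and 22327 probe sets in all. The probe set with the highest mean signal stood for each gene. RNA levels had been measured on 188 Affymetrix HT_MG-430A arrays of whole aorta from wild-type male mice, 16 weeks old, that ate chow and received no treatment. The 94 strains comprised 28 AXB and BXA recombinant inbred strains (59 arrays) derived from A/J and C57BL/6J, 28 BXD strains (53 arrays) derived from DBA/2J and C57BL/6J, 10 BXH strains (21 arrays) derived from C3H/HeJ and C57BL/6J, and 28 classical inbred strains (55 arrays) that included these 4 parents. A pair of the BXD names carry a further allele, BXD24/TyJ-Cep290<rd16>/J and BXD29-Tlr4<lps-2J>/J. BXD32/TyJ was not used because its 2 array descriptions end in a suffix of unknown meaning, and this left 93 strains and 186 arrays. Most strains (79) had 2 arrays, and nothing in the labels says that these came from separate animals, so p-values measure the spread between arrays, which may be partly technical.

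Collagens are secreted proteins in which 3 chains wind into a triple helix. The fibrillar types I, III and V form the fibres that give the arterial wall its tensile strength, the type IV chains form the sheet of the basement membrane under the endothelium and around smooth muscle cells, and type VI forms beaded filaments between the fibres and the cells. Network-forming type VIII is found in vessel walls, the fibril-associated chains (FACIT, such as types IX, XIV and XVI) coat fibrils, and types XV and XVIII, the multiplexins, sit at basement membranes. Types II, IX, X and XI are cartilage collagens, type VII anchors the epidermis, and type XVII spans the membrane of basal keratinocytes.

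The promoters of 3 members are shown as a description, and no result rests on these sequences. Col4a6 and Col4a5 encode type IV chains and are neighbours on the X chromosome, read in opposite directions from outermost annotated starts that lie 1275 bases apart, and only the first of them was called within the AXB and BXA strains. Col3a1, the fibrillar chain with the highest signal, is given beside them. The sequences are the RefSeq bases upstream of each gene's outermost annotated start in GRCm38.p6, taken from windows of 250 bases before 1 start per gene and cut short where the annotated gene begins earlier, 5′ to 3′ on the gene's own strand, at chrX:141474096-141474326 (minus strand, 231 bases), chrX:141475169-141475369 (plus strand, 201 bases) and chr1:45311288-45311537 (plus strand, 250 bases). Capitals mark matches, on either strand, to TATAAA (the TATA box), to CCAAT (the CCAAT box) and to GGGCGG (the GC box).

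Col4a6: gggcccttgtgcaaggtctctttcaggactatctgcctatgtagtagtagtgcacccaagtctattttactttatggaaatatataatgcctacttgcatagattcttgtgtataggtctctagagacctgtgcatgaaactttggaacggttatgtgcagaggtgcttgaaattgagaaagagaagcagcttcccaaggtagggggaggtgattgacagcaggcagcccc

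Col4a5: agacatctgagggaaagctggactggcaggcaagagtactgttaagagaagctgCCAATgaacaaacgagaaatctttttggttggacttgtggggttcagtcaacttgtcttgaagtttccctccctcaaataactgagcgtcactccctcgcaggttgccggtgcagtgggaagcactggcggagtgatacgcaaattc

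Col3a1: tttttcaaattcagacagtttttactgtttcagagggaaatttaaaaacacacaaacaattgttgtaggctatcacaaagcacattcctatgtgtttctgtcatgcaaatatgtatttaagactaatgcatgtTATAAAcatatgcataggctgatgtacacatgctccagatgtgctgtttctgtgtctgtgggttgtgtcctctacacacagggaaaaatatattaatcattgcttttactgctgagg

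The Col4a5 window held 1 CCAAT, at base 55, and neither of the other strings. CCAAT was found in 28.6% of all 32851 promoters in the table, TATAAA in 9.18% and GGGCGG in 24.8%. These shares cover a window of that length from the same upstream end, which stops short of each promoter's start. The Col3a1 window held 1 TATAAA, at base 134, as did 12.4% of all promoters, and no CCAAT (33.8%) or GGGCGG (32.7%). The Col4a6 window held none of the 3 strings, which occur in 11.8%, 32.3% and 30% of promoters, respectively, over its length counted likewise. GC content was 45.5% for Col4a6, 49.8% for Col4a5 and 35.2% for Col3a1. No motifs overlapped, and a match here is only a description of the letters. The table held promoters for 25 of the 32 members.

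In aortic RNA the fibrillar chains of types I, III and V, the common type IV chains and the type VI chains had bright signals, while the mean signals of the cartilage and epidermal chains were dim. All levels are log2 values, and since probes differ in brightness, levels are not compared as amounts between genes. As a yardstick for a dim signal, the highest value of Xist, a transcript of females, on any of these male arrays was 4.63. The mean over all arrays lay above it for 16 members, which were 5 of the 8 fibrillar chains, 4 of the 6 type IV chains, all 3 chains of type VI, 1 of 2 network chains, 1 of 6 FACIT chains and both multiplexins. These means ran from 4.80 (Col8a1) to 10.60 (Col3a1). The other 16, from 3.11 (Col19a1) to 4.59 (Col16a1), included Col2a1, Col11a1, Col11a2, Col4a3, Col4a4, Col10a1, Col9a1, Col9a2, Col9a3, Col7a1, Col13a1, Col17a1, Col25a1 and Col26a1. Of these, Col17a1 exceeded 4.63 on 34 arrays and reached 7.97.

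**Figure D1:**
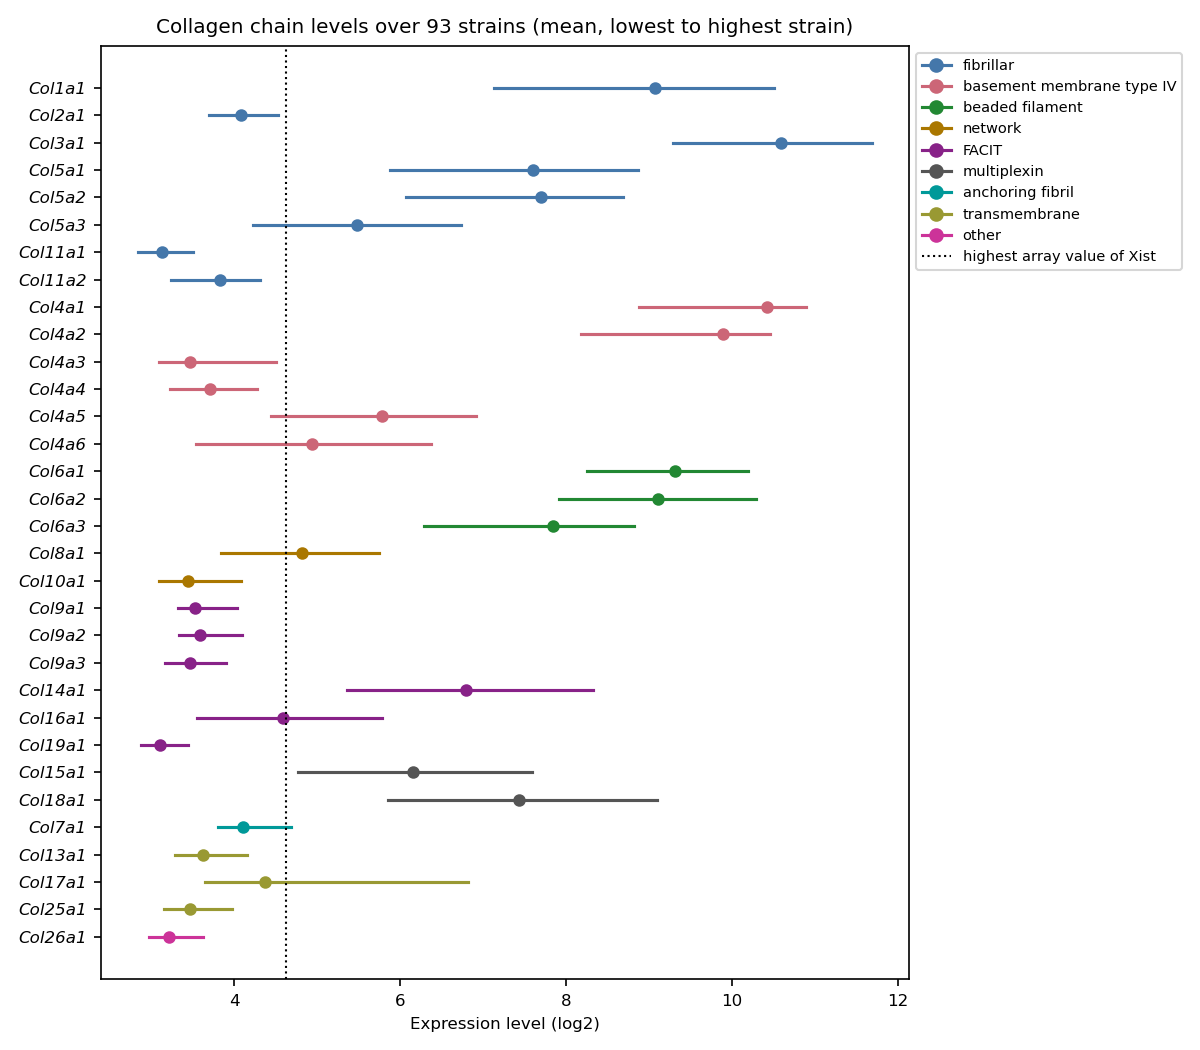
Expression level (log2) of the 32 collagen genes. Points are means over 93 strains and lines run from the lowest to the highest strain mean, coloured by class, and the dotted line is the highest array value of Xist (4.63). Col3a1 and Col4a1 lie farthest to the right, and the 16 members with means at or below the dotted line include every type IX chain.

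Collagen genes showed strain differences at a share near that of all genes. Of the 32 members, 17 (53.1%) passed the test of a strain effect (limma moderated F test over the 84 strains with 2 or more arrays, 177 arrays, Benjamini-Hochberg adjusted p below 0.05), against 46.5% of all 22327 probe sets and 48.8% of all genes. All 16 brighter members passed, where 69.4% of the 6800 genes of that brightness did. Of the 16 dimmer ones 1 passed, Col16a1, where 20.4% of the 4925 dimmer genes did. This split by brightness was chosen after the values were seen. ICC, the intraclass correlation, gives the part of a gene's variance found among strains. It had a median of 0.244 over the 32 members and 0.19 over all genes. In bulk tissue, fewer cells of a type and less RNA per cell cannot be told apart. Levels are probe signals, and whether strains differ in sequence under the probes was not examined.

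The arrays carry numbers that fall into 2 blocks, whose meaning is not labelled. Within the first block (43 strains with 2 or more arrays, 86 arrays) 14 members passed, against 29.8% of all probe sets, and Col5a3, Col4a5 and Col18a1 did not (adjusted p = 0.0609, 0.364 and 0.0579, limma). Within the second (43 strains, 88 arrays) 10 passed, against 13.9%. There the calls of Col5a3 (0.114), Col4a1 (0.135), Col4a2 (0.554), Col4a5 (0.0867), Col6a1 (0.104), Col16a1 (0.0808) and Col18a1 (0.0508) were lost. With the block as a covariate on all arrays the count was 17. The arrays of most strains carry consecutive numbers, so smaller groups of numbers cannot be told apart from strain.

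**Figure D2:**
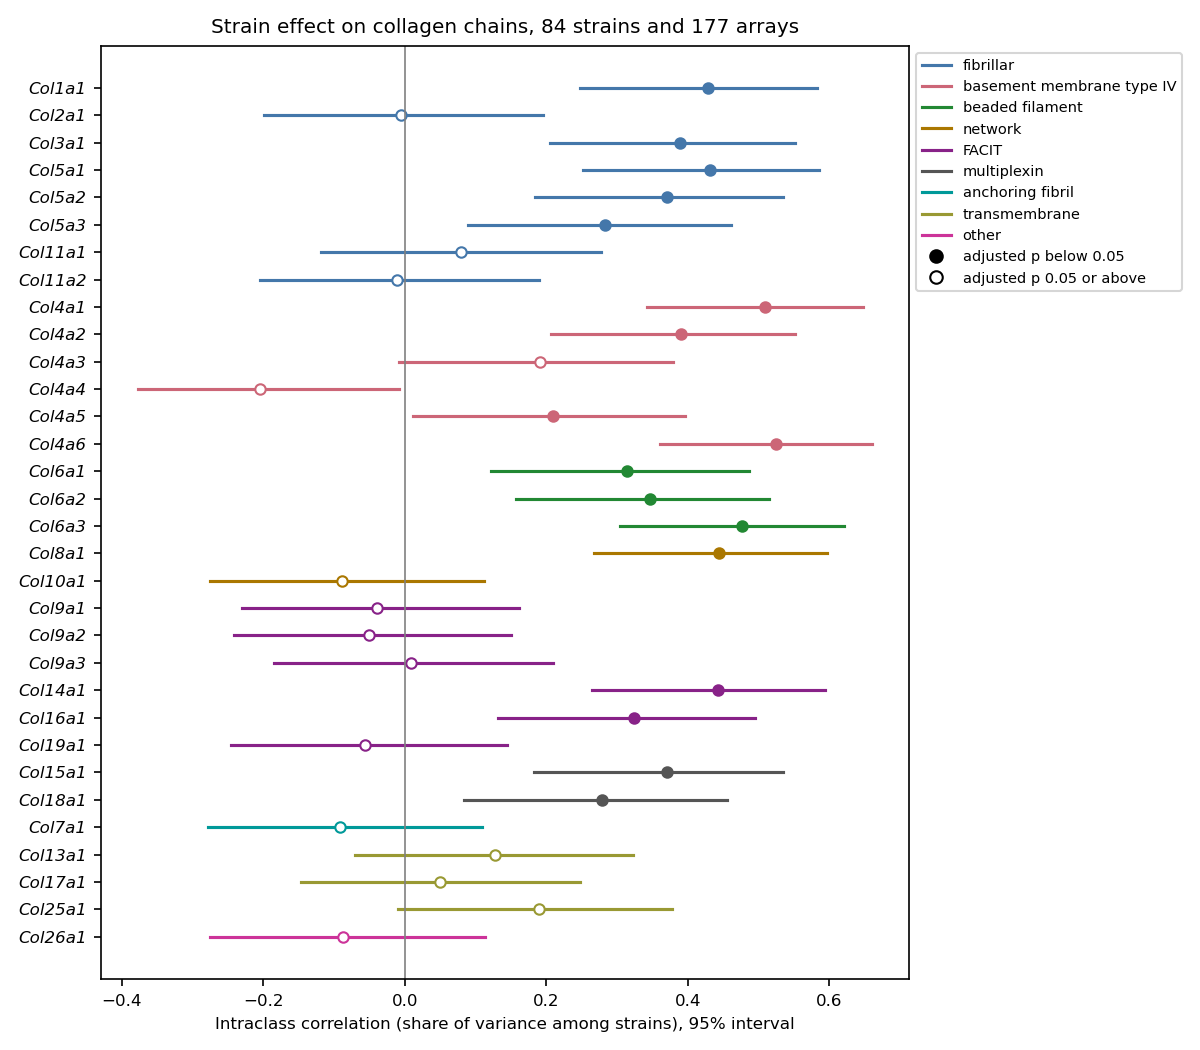
Intraclass correlation of each collagen gene with its 95% interval, over 84 strains and 177 arrays, coloured by class. Filled points passed the test of a strain effect. Col4a6 (0.525) and Col4a1 (0.509) are highest, and the cartilage chains lie around 0.

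Among the fibrillar chains, 5 of 8 passed. Col1a1, the alpha 1 chain of type I collagen, read 7.65 and 6.60 on the RIIIS/J arrays and 10.50 and 10.51 on those of AKR/J, with a median strain at 9.08. RIIIS/J was low and AKR/J high on every array, and the strain means spanned 10.4-fold, or 6.01-fold without RIIIS/J (ICC 0.428, 95% interval 0.248 to 0.582, adjusted p = 3.98e-05). Col3a1, the chain of type III collagen, which is abundant in vessels, read 9.82 and 8.75 in RIIIS/J and 11.69 and 11.68 in AKR/J around a median strain of 10.62 (ICC 0.389, adjusted p = 2.21e-04). The same strains stood at the ends for both of these genes.

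Type V collagen nucleates type I fibrils. Its chain Col5a1 read 6.18 and 5.59 in RIIIS/J and 8.82 and 8.92 in NON/ShiLtJ, around a median strain of 7.63 (ICC 0.431, adjusted p = 3.60e-05). Col5a2 ran from 6.07 in RIIIS/J to 8.69 in AKR/J (ICC 0.371), and Col5a3 from 4.23 in RIIIS/J to 6.56 in BTBR T<+> tf/J (ICC 0.283). The lowest strain was the same for all 3 type V chains, but the highest was not. The cartilage chains Col2a1, Col11a1 and Col11a2 did not pass (adjusted p = 0.617, 0.371 and 0.652), and their strain means spanned 0.59 to 0.75 on the log2 scale.

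Among the basement membrane chains, 4 of 6 passed. Col4a1, which with Col4a2 forms the common type IV molecule, had a narrow spread and 1 low strain. It read 8.92 and 8.84 in RIIIS/J and 11.01, 10.95 and 10.71 in C57BL/6J, around a median of 10.45, and the next strain above RIIIS/J, AXB19a/PgnJ, had a mean of 9.82 (ICC 0.509, 95% interval 0.342 to 0.647, adjusted p = 9.58e-07). Col4a2 likewise read 8.11 and 8.25 in RIIIS/J, with the next strain, SM/J, at 9.24 and the highest, BXA25/PgnJ, at 10.46 (ICC 0.390). The log2 difference of RIIIS/J from the median strain was -1.58 for Col4a1 and -1.73 for Col4a2. Without RIIIS/J, Col4a1 still passed (adjusted p = 0.0025) and Col4a2 did not (adjusted p = 0.0507).

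Col4a6 had the highest ICC of all members, 0.525 (95% interval 0.361 to 0.660, adjusted p = 1.96e-07). Its arrays read 3.40 and 3.67 in AXB8/PgnJ and 6.25 and 6.49 in MA/MyJ, around a median strain of 4.99, a 7.13-fold span. A second probe set of the gene gave an ICC of 0.597 and correlated with the first over strain means (r = 0.931). Its X-linked neighbour Col4a5 ran from 4.45 in AXB19a/PgnJ to 6.92 in MA/MyJ (ICC 0.209, adjusted p = 0.0343), and this call was lost when any of 5 strains was left out (adjusted p up to 0.0834, without RIIIS/J). Col4a3 (adjusted p = 0.0582) and Col4a4 (0.990), chains of the glomerular basement membrane, did not pass.

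All 3 chains of type VI collagen, which assemble into 1 molecule, passed, although Col6a1 did not within the second block. Col6a1 read 8.38 and 8.15 in RIIIS/J and 10.36 and 10.05 in BALB/cJ around a median strain of 9.30 (ICC 0.314). Col6a2 ran from 7.92 in RIIIS/J to 10.29 in BTBR T<+> tf/J (ICC 0.346). Col6a3 had the highest ICC of the 3 (0.476, adjusted p = 3.74e-06). It read 6.61 and 6.14 in BXD8/TyJ and 8.98 and 8.61 in BXD9/TyJ around a median of 7.93, with RIIIS/J next to the bottom at 6.40.

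Of the remaining classes, 5 of 15 members passed. Col8a1, the network chain, read 4.01 and 3.66 in RIIIS/J and 5.68 and 5.47 in NZW/LacJ around a median strain of 4.81 (ICC 0.444, adjusted p = 2.23e-05). A second, dimmer probe set of Col8a1 (mean 3.29) did not pass (adjusted p = 0.914). Col14a1, a FACIT chain on fibril surfaces, read 5.05 and 5.82 in BXD33/TyJ, 6.22 and 4.74 in RIIIS/J, and 8.60 and 8.06 in AKR/J around a median of 6.77 (ICC 0.443, adjusted p = 1.99e-05). Col16a1, another FACIT chain, ran from 3.55 in AXB19/PgnJ to 5.78 in BTBR T<+> tf/J (ICC 0.324).

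Both multiplexins passed. Col15a1 ran from 4.77 in RIIIS/J (arrays 5.06 and 4.49) to 7.59 in BXH2/TyJ (arrays 7.82 and 7.36; ICC 0.370, adjusted p = 4.29e-04). Col18a1, whose C-terminal fragment is endostatin, had a 9.45-fold span, from 6.03 and 5.68 in BXH22/KccJ to 9.74 and 8.46 in BXH2/TyJ around a median of 7.50, and the widest spread within strains of the passing members (SD 0.69; ICC 0.278, adjusted p = 6.91e-03). The dim chains of the other classes did not pass, with adjusted p-values of 0.0816 (Col25a1) to 0.886 (Col26a1). Of these, Col17a1 spanned the most, from 3.74 in AXB10/PgnJ to 6.82 in BXD13/TyJ, yet its SD within strains was 0.85 (adjusted p = 0.358).

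RIIIS/J, a classical inbred strain, was the lowest strain for 11 of the 17 members that passed. AKR/J was the highest for 4, BTBR T<+> tf/J for 3, and BXH2/TyJ and MA/MyJ for 2 each. The RIIIS/J arrays also stood apart in genes of other cells. A score is the mean of a list's log2 values after centring each gene over all arrays. On the thymocyte list (9 of 12 genes measured, 4 of them with means below 4.63), both RIIIS/J arrays scored 4.38 and 4.60 against a median of -0.75 and a range of -1.12 to 4.60. Their smooth muscle scores were -0.92 and -1.33, their fibroblast scores -0.69 and -1.46, and their endothelial scores -1.27 and -1.46, the last being the lowest of any array. The part of these cells in the low collagen values was not tested. With RIIIS/J left out, 15 of the 32 members passed, against 37.3% of all probe sets. With the 69 thymocyte-high or squamous-high arrays (score above 1) left out, 14 did, against 33.3% of all probe sets (39 strains kept 2 or more arrays), and Col4a5, Col5a3 and Col18a1 no longer passed (adjusted p = 0.430, 0.0579 and 0.116).

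The parental strains were compared because the recombinant families derive from them. No collagen gene passed in any of the 3 contrasts with C57BL/6J (limma, 2 arrays against the same 3 C57BL/6J arrays), where 0.645% of all probe sets passed for A/J, 0.524% for DBA/2J and 1.25% for C3H/HeJ. At an unadjusted p below 0.05 there were 3, 5 and 4 of the 32 members, respectively, against 8.92%, 4.69% and 13% of all probe sets. Because all 3 contrasts share the C57BL/6J arrays, their values are given side by side only.

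The smallest p-value among these contrasts was that of Col4a6, an X-linked type IV chain, between A/J and C57BL/6J. Its A/J arrays read 3.64 and 4.11, and those of C57BL/6J 5.97, 4.84 and 5.68. Both A/J values lay below 4.63, the yardstick for a dim signal. The groups did not overlap, as in 7 of the 32 members in this contrast. How often groups of this size do not overlap over all probe sets was not counted. The log2 difference was -1.62 (SE 0.45, 95% interval -2.52 to -0.72, adjusted p = 0.0703, limma), which did not pass. The A/J array at 3.64 had a smooth muscle score of -1.65 and that at 4.11 a score of 0.48, while the 3 C57BL/6J arrays scored 0.99, 0.56 and 0.20. The part of smooth muscle in this difference was not tested. The second Col4a6 probe set gave -2.01 (SE 0.45) and passed (adjusted p = 0.0057). With thymocyte, squamous and skeletal muscle scores as covariates, as in every such fit here, the first probe set passed (adjusted p = 0.0307, limma). Smooth muscle scores were not among these covariates. The first probe set also passed with probe sets above the median level only (adjusted p = 0.0466) and without the thymocyte-high or squamous-high arrays (0.0439). Without C57BL/6J replicate 2 the first probe set passed as well (-1.95, adjusted p = 0.0358). It did not pass with the BXD32/TyJ arrays kept (0.0745), with the block as a covariate (0.0908), with arrays centred on their medians (0.0833) or with an intensity trend (0.0720). Nor did it without A/J replicate 1 (0.922) or 2 (0.186), where 1 array is assumed to vary like the other strains, or without C57BL/6J replicate 1 (0.440) or 3 (0.0949).

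Col18a1 read 5.60 and 8.13 in A/J and 9.16, 9.19 and 7.65 in C57BL/6J, and these overlapped (log2 difference -1.80, SE 0.62, adjusted p = 0.247). The A/J array at 5.60 was the one with the low smooth muscle score. Without the second A/J array the Col18a1 difference was -3.06 and passed (adjusted p = 0.0320), with A/J resting on the single array low in smooth muscle genes, which is assumed to vary like the other strains. The part of smooth muscle in it was not tested.

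In DBA/2J, Col14a1, Col16a1 and Col8a1 had the highest differences from C57BL/6J, none of which passed. Col14a1 read 8.29 and 7.99 in DBA/2J and 6.83, 6.40 and 6.96 in C57BL/6J (log2 difference 1.41, SE 0.48, adjusted p = 0.331). Col16a1 differed by 1.07 (adjusted p = 0.290) and Col8a1 by 0.89 (adjusted p = 0.290). The arrays of the 2 strains did not overlap in 4 of the 32 members, these 3 among them. The share without overlap over all probe sets was not counted, so nothing rests on it. C3H/HeJ read 11.44 and 11.64 in Col3a1 against 10.97, 10.56 and 10.64 (log2 difference 0.81, adjusted p = 0.293), and 10.41 and 10.38 in Col4a1 against 11.01, 10.95 and 10.71 (-0.50, adjusted p = 0.264). It also differed by 1.02 in Col14a1 (adjusted p = 0.337) and by -1.48 in Col18a1 (adjusted p = 0.272, limma). Fibroblast scores were 0.75 and 0.74 in C3H/HeJ, 0.35 and 0.41 in DBA/2J, and -0.03, -0.20 and 0.28 in C57BL/6J. Smooth muscle scores were -0.77 and 0.22 in C3H/HeJ, 0.98 and -0.75 in DBA/2J, and 0.99, 0.56 and 0.20 in C57BL/6J. The part of these cells in the differences was not tested. Over the 32 members the median log2 difference was -0.22 for A/J, -0.03 for DBA/2J and -0.03 for C3H/HeJ, against -0.03, 0.01 and -0.04 over all genes.

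**Figure D3:**
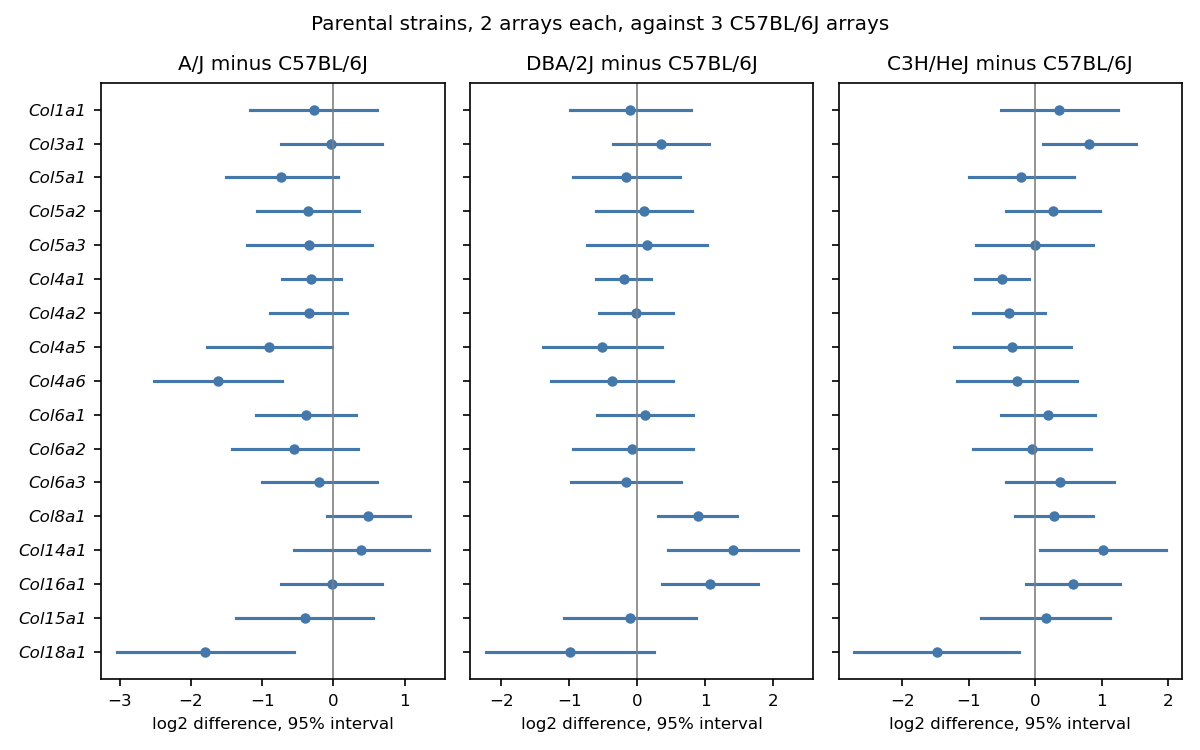
Log2 difference of each parent from C57BL/6J with its 95% interval (limma), for the 16 brighter members and Col16a1. Each panel is 1 parent with 2 arrays against the same 3 C57BL/6J arrays. Col4a6 (-1.62) and Col18a1 (-1.80) lie farthest left for A/J, and Col14a1 (1.41) farthest right for DBA/2J.

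Within the recombinant families, the question was which chains differed among strains that share 2 parents. In the AXB and BXA strains (27 strains with 2 or more arrays, 58 arrays), 1 of 32 members passed, Col4a6 (limma moderated F test, adjusted p = 0.0058), against 3.81% of all probe sets. Its ICC there was 0.575 (95% interval 0.287 to 0.775), and its strain means ran from 3.54 in AXB8/PgnJ to 5.78 in BXA4/PgnJ (arrays 5.46 and 6.11), with A/J at 3.87 and C57BL/6J at 5.50. The second probe set passed with an adjusted p of 6.12e-06.

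The strain means of Col4a6 fell on either side of a gap. All 28 strain means were considered, and 9 lay at 3.54 to 3.99 and 19 at 4.59 to 5.78, with a gap of 0.59 between them, where the next widest gap was 0.21. The 9 low strains were all AXB (AXB1/PgnJ, AXB5/PgnJ, AXB8/PgnJ, AXB10/PgnJ, AXB15/PgnJ, AXB19/PgnJ, AXB19a/PgnJ, AXB19b/PgnJ and AXB23/PgnJ), of which AXB19/PgnJ, AXB19a/PgnJ and AXB19b/PgnJ share a number. The other 6 AXB strains and all 13 BXA strains lay above the gap. Single arrays overlapped, at 3.27 to 4.35 (20 arrays) and 3.77 to 6.39 (39 arrays). On the second probe set the same 9 strains lay at 3.12 to 3.43 and the other 19 at 4.26 to 5.57. In Col4a5 they did not stand apart, at 4.45 to 6.22 against 5.28 to 6.29. Their smooth muscle scores overlapped, at -1.28 to 0.77 (median 0.07) in the 9 strains and -0.51 to 0.62 (median 0.13) in the 19. This split was seen in the values and has no test, and strain sequence under the probes was not examined. On the first probe set all 9 low means lay below 4.63, the yardstick for a dim signal. The lowest mean above the gap (4.59) did too, so the size of the difference is uncertain. Among strains outside the family, BALB/cJ (3.71), BXD11/TyJ (3.87, 1 array), BXH22/KccJ (3.92) and 129X1/SvJ (3.95) lay in the low range with A/J. Smooth muscle scores were 0.36 and 0.36 in BALB/cJ, -1.12 in BXD11/TyJ, -1.31 and -1.84 in BXH22/KccJ, and -0.23 and 0.23 in 129X1/SvJ. Col4a5 means were 5.81 in BALB/cJ, 4.69 in BXD11/TyJ, 4.81 in BXH22/KccJ and 5.96 in 129X1/SvJ. The part of smooth muscle in these low values was not tested.

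The AXB and BXA call of Col4a6 was kept with the block as a covariate on all arrays (adjusted p = 0.00757) and when each of the 27 strains was left out in turn (adjusted p = 1.25e-04 to 0.0368). In fits on fewer arrays it was lost. The adjusted p was 0.0549 without the thymocyte-high or squamous-high arrays, 0.0558 within the first block of array numbers (12 strains with 2 or more arrays there) and 0.234 within the second (16 strains).

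**Figure D4:**
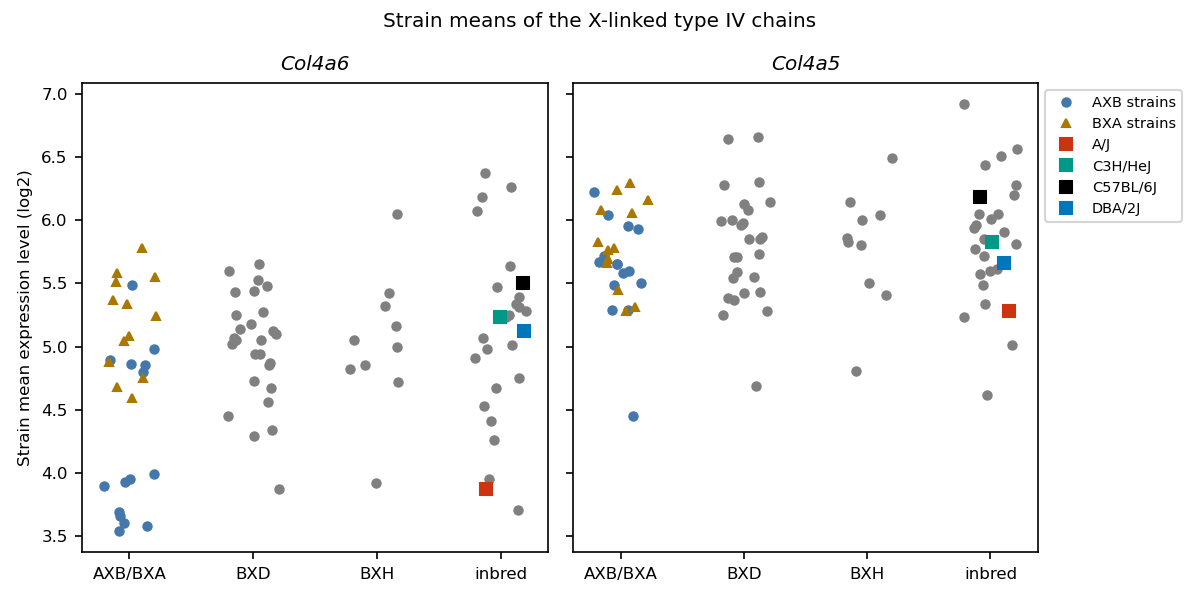
Strain means (log2) of the X-linked type IV chains Col4a6 and Col4a5 in the AXB/BXA, BXD and BXH families and in the classical inbred strains, 1 point per strain. Squares mark the 4 parents. In Col4a6, 9 AXB strains lie at 3.54 to 3.99 near A/J (3.87), below the other 19 strains of the family, while in Col4a5 they mix with the rest.

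In the BXD strains (22 strains, 46 arrays), 3 of 32 members passed, against 15.1% of all probe sets, and the median ICC was 0.130 against 0.222 over all genes. Col14a1 ran from 5.43 in BXD33/TyJ (arrays 5.05 and 5.82) to 8.07 in BXD9/TyJ (arrays 8.28 and 7.85), with a median strain of 6.78 (ICC 0.533, adjusted p = 0.0127). Its DBA/2J mean was 8.14 and its C57BL/6J mean 6.73, and 14 of the 22 strains lay between these. Col6a3 ran from 6.38 in BXD8/TyJ to 8.80 in BXD9/TyJ (ICC 0.519, adjusted p = 0.0163), with parents at 8.10 and 8.26 and 15 strains below both. Col3a1 ran from 9.93 in BXD8/TyJ (arrays 10.21 and 9.66) to 11.47 in BXD9/TyJ (arrays 11.59 and 11.36; ICC 0.459, adjusted p = 0.0357), with 13 strains below both parents. BXD9/TyJ was the highest strain for all 3.

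Each of these BXD calls depended on the arrays used. In this family strain and block of array numbers cannot be separated in 1 fit. Within the first block (7 strains with 2 or more arrays) no member passed (adjusted p of the 3 genes 0.732 to 0.799, limma), against 0.376% of all probe sets, and within the second (15 strains) 10 did, against 13.9%, including Col1a1, Col5a2, Col6a1, Col6a2 and Col15a1. Col3a1 was lost when the BXD32/TyJ arrays were kept (adjusted p = 0.0512), and both Col3a1 (0.0679) and Col14a1 (0.125) without the thymocyte-high or squamous-high arrays. Without BXD8/TyJ 1 member passed, against 12.5% of all probe sets. The BXD33/TyJ array with 5.05 in Col14a1 had a thymocyte score of 3.40 and the other -0.61.

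In the BXH strains (9 strains, 20 arrays) no member passed (limma), against 1.26% of all probe sets, while 13 of the 32 members had an unadjusted p below 0.05, against 12.4% of all probe sets. The median ICC over the members was 0.386, against 0.106 over all genes. Col15a1 was nearest to passing and ran from 5.63 in BXH22/KccJ (arrays 5.97 and 5.28) to 7.59 in BXH2/TyJ (arrays 7.82 and 7.36), with an ICC of 0.711 (95% interval 0.255 to 0.923, adjusted p = 0.0572). Col18a1 ran from 5.86 to 9.10 between the same strains (ICC 0.679, adjusted p = 0.0670), and Col1a1 from 8.36 in BXH6/TyJ to 9.91 in BXH2/TyJ (ICC 0.683, adjusted p = 0.0811). The 2 BXH22/KccJ arrays had smooth muscle scores of -1.31 and -1.84, the second being the lowest of any array, and those of BXH2/TyJ 0.91 and 0.58. The part of smooth muscle in these ranges was not tested. With thymocyte, squamous and skeletal muscle scores as covariates, Col15a1 and Col18a1 passed (adjusted p = 0.0374 and 0.0270, limma). Smooth muscle scores were not among these covariates. Without BXH9/TyJ 5 members passed, against 2.2% of all probe sets.

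Between families, 1 collagen gene differed past the threshold. Col8a1 averaged 4.66 (SD 0.28, n = 28 strains) in AXB and BXA and 5.0 (SD 0.37, n = 27) in BXD, a log2 difference of -0.34 (SE 0.09, adjusted p = 0.0244, limma on strain means). The ranges overlapped, at 4.12 to 5.28 and 4.38 to 5.75. It was the only member of 32 to pass, against 2.22% of all probe sets. The difference was -0.19 without the thymocyte-high or squamous-high arrays (adjusted p = 0.450), -0.25 with scores as covariates (0.112), -0.42 within the first block of array numbers (0.720) and -0.30 within the second (0.197), and it did not pass in any of these, while with the block as a covariate it did (-0.34, adjusted p = 0.0262). Col4a6 differed by -0.31 between the same families (SE 0.16, adjusted p = 0.364). No member passed between AXB/BXA and BXH (background 0.322%, no unadjusted p below 0.05 against 7.28% of all probe sets) or between BXD and BXH (background 0.184%, 1 unadjusted p below 0.05 against 5.21%), both with limma.

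The chains of type VI collagen, and those of the common type IV molecule, varied together over the 93 strain means. Correlations were computed for 24 pairs, with permutation p-values (100000 resamples, two-sided) adjusted over the 24 pairs. Col6a1 and Col6a2 correlated most closely (Pearson r = 0.958, Spearman rho = 0.954), and r was 0.952 without the 2 strains farthest from the median of Col6a1, and 0.964 and 0.949 inside the first and second block of arrays. Col4a1 and Col4a2, which are read from opposite strands of a shared promoter region, followed (r = 0.897, rho = 0.846), with r = 0.835 without RIIIS/J and AXB19a/PgnJ and 0.927 and 0.809 within the blocks. Col1a1 and Col3a1 had r = 0.826 and rho = 0.818, with r = 0.785 without RIIIS/J and AKR/J and 0.800 and 0.834 within the blocks. For all 3 pairs the permutation p was 1e-05, the smallest these resamples can give, and the adjusted p was 1.6e-05 for r and 1.7e-05 for rho.

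Further pairs of the 24 came from within and across molecules. Col6a1 and Col6a2 had r = 0.812 and 0.801 with Col6a3. Col3a1 and Col5a2 had r = 0.765, Col15a1 and Col18a1 0.736, Col5a1 and Col5a2 0.660, and the X-linked Col4a5 and Col4a6 0.631 (rho = 0.656; 0.541 and 0.704 within the blocks). Across classes, Col1a1 correlated with Col4a1 at r = 0.490 and rho = 0.354, and at 0.618 and 0.300 within the blocks. Cartilage pairs were weak. Col2a1 and Col11a1 had r = 0.284 (adjusted p = 8.1e-03), and Col11a1 and Col11a2 had r = -0.199 (adjusted p = 0.0649), which turned to 0.0902 with arrays centred on their medians. Over all 120 pairs of the 16 brighter members r was positive, from 0.063 (Col8a1 with Col18a1) to 0.958, with a median of 0.554. Some pairs across classes, picked here for their high values, were as close as those within a class, such as Col6a2 with Col15a1 (0.861) and Col5a1 with Col6a1 (0.849). The median was 0.551 for deviations of arrays from their own strain's mean, which is close to that over strain means. Over all 496 pairs of members the median was 0.205. Col4a6 had the lowest median r with the other brighter members (0.308) and Col1a1 the highest (0.728).

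**Figure D5:**
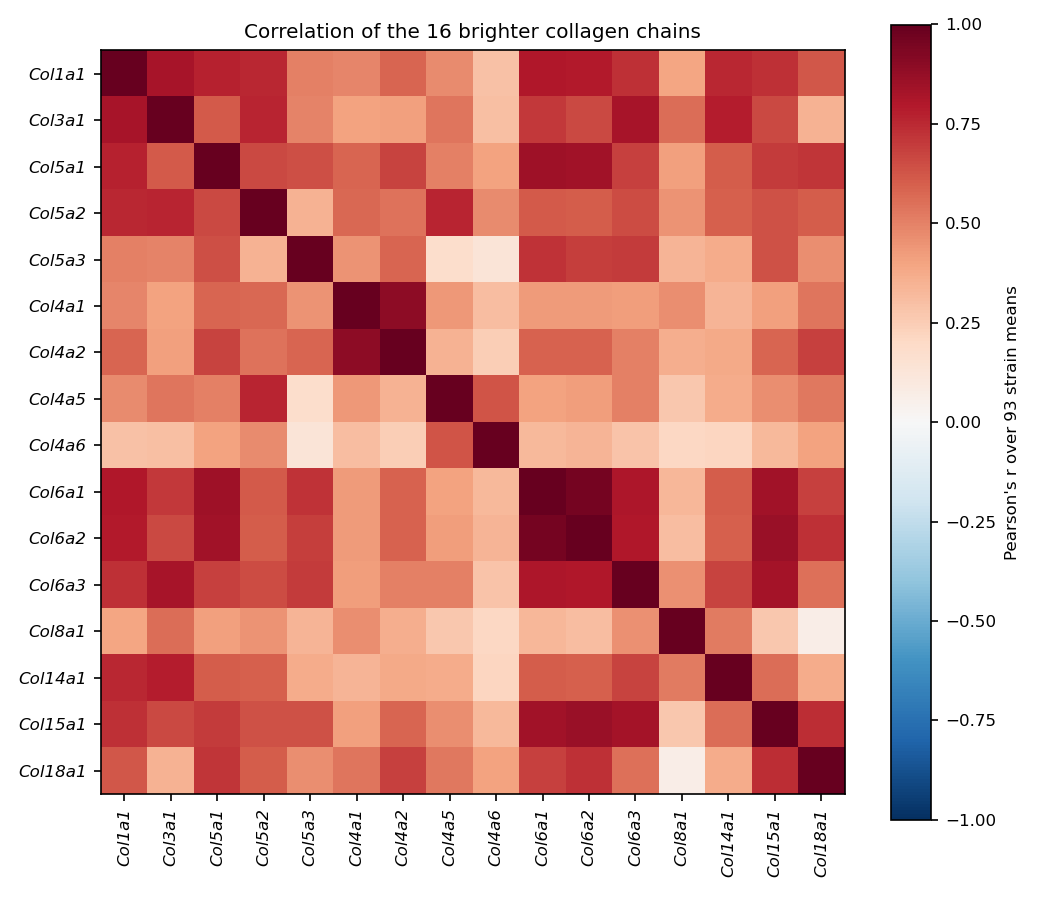
Pearson's r over 93 strain means between the 16 brighter collagen genes, ordered by class, on a colour scale from -1 to 1. The darkest cells off the diagonal are Col6a1 with Col6a2 (0.958) and Col4a1 with Col4a2 (0.897), and the rows of Col4a6 and Col8a1 are palest.

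The brighter chains also correlated with scores of cell type marker lists, which are themselves RNA levels. Scores of 10 lists were correlated with the 32 members over 93 strain means, 320 relations in all, with permutation p-values adjusted over them. Smooth muscle scores (9 of 11 genes measured) correlated positively with 15 of the 16 brighter members, passing in both Pearson's and Spearman's tests. Col18a1 was closest (r = 0.837, rho = 0.764, adjusted p = 6.5e-05 and 9.7e-05, r = 0.816 without BXH22/KccJ and AXB19a/PgnJ, and 0.848 and 0.835 within the blocks). Fibroblast scores (7 of 8 genes) correlated positively with 12, with Col14a1 closest (r = 0.794, rho = 0.786, adjusted p = 6.5e-05 and 9.7e-05, r = 0.777 without RIIIS/J and C3H/HeJ, 0.765 and 0.806 within the blocks).

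Endothelial scores (9 of 9 genes) did so with 7, and most closely with Col4a2 (r = 0.739, rho = 0.597) and Col4a1 (r = 0.733, rho = 0.600), each with adjusted p of 6.5e-05 and 9.7e-05. Without RIIIS/J and BXA7/PgnJ these were 0.610 and 0.606, and within the blocks 0.808 and 0.540 for Col4a2 and 0.787 and 0.563 for Col4a1. Thymocyte scores correlated negatively with 13 of the 16, down to r = -0.641 for Col4a1 (rho = -0.499, -0.524 without RIIIS/J and C57L/J, and -0.632 and -0.626 within the blocks). Col4a6 passed with smooth muscle (r = 0.566) and fibroblast scores (r = 0.273), and missed with thymocyte scores (r = -0.180, adjusted p = 0.178). Schwann cell scores (4 of 6 genes measured) correlated positively with 11 of the 16, most closely with Col5a3 (r = 0.618, rho = 0.590, r = 0.592 without KK/HlJ and AXB19/PgnJ, 0.694 and 0.492 within the blocks), and chondrocyte scores with 6, at r of at most 0.340. Scores of skeletal muscle, cardiac muscle and squamous epithelium passed with none of the 16, and those of brown fat passed with 1. The part of any cell type in the strain differences was not tested.

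Col17a1, the keratinocyte collagen, followed squamous epithelium (r = 0.818, rho = 0.705, adjusted p = 6.5e-05 and 9.7e-05, r = 0.765 without BXD13/TyJ and BXD39/TyJ, 0.907 and 0.749 within the blocks). Its arrays in BXD13/TyJ read 7.01 and 6.63, where the squamous scores were 4.05 and 4.26 against a median of -0.88. In BXA11/PgnJ the Col17a1 arrays read 7.93 and 4.29, so the 2 arrays of 1 strain lay far apart. Col2a1, the cartilage chain, correlated with chondrocyte scores (r = 0.499, rho = 0.483, adjusted p = 6.5e-05 and 9.7e-05, 0.466 without KK/HlJ and BXD14/TyJ, 0.451 and 0.477 within the blocks), but 8 of the 10 chondrocyte genes measured were themselves dim, with means below 4.63. Markers of the labelled tissue gave strong signals, with means of 12.42 for Acta2, 9.23 for Myh11 and 9.32 for Eln.

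Genes that modify, process, cross-link and degrade collagen varied between strains too. Of 51 genes on a fixed list, 39 were measured and 27 (69.2%) passed the test of a strain effect, against 48.8% of all genes. Of the 39, 30 had means above 4.63, and 25 of these (83.3%) passed, against 69.4% of all genes of that brightness. The list had a median ICC of 0.268 against 0.19 over all genes. Among the 27, RIIIS/J was the lowest strain for 17 and BTBR T<+> tf/J the highest for 13. The cross-linking enzyme Loxl2 had the highest ICC (0.669), from 3.10 in BXD14/TyJ to 5.55 in BTBR T<+> tf/J. Its mean over all arrays was 3.39, below the 4.63 yardstick for a dim signal, and the 4 parents lay at 3.28 to 3.59. Serpinh1, the collagen chaperone Hsp47, ran from 7.45 in RIIIS/J to 9.75 in BXA8/PgnJ (ICC 0.418). Mmp2, a gelatinase, ran from 7.22 in RIIIS/J to 9.27 in CBA/J (ICC 0.516), and Pcolce, which enhances procollagen cleavage, from 5.73 in RIIIS/J to 9.17 in BTBR T<+> tf/J (ICC 0.405). P4ha2, P4hb, P3h1, P3h4, Creb3l1, Tll1, Loxl4, Mmp8, Mmp9, Mmp13, Itga2 and Itgb1 did not pass.

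Ddr2, a receptor kinase that binds fibrillar collagen, was the only gene of the list to pass in a parental contrast. That made 1 of the 39 for A/J, against 0.645% of all probe sets. Ddr2 read 5.77 and 6.18 in A/J and 7.44, 6.90 and 7.44 in C57BL/6J (log2 difference -1.28, SE 0.32, adjusted p = 0.0221, limma). Ddr2 also passed within the AXB and BXA strains (adjusted p = 0.0053) and was lower in them than in BXD (log2 difference -0.45, SE 0.10, adjusted p = 0.0071), and over all strains it ran from 5.53 in RIIIS/J to 8.12 in AKR/J (ICC 0.589). Timp3, an inhibitor of metalloproteinases, was the other gene to pass within AXB and BXA (adjusted p = 0.0397, limma). Within AXB and BXA that made 2 of the 39, against 3.81% of all probe sets. Between AXB/BXA and BXD, Ddr2 made 1 of the 39, against 2.22%. Within BXD, 5 of the 39 passed, against 15.1% of all probe sets. They were Serpinh1 (adjusted p = 0.00427, limma), Colgalt1 (0.00584), Mmp2 (0.0141), Timp1 (0.0200) and Crtap (0.0402). Within BXH none passed (limma), against 1.26% of all probe sets.

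The genes outside the collagens whose strain means followed the brightest member of each kind were looked up among all named genes, over the same 93 strains. Those closest to Col3a1 were Fstl1 (r = 0.747), Antxr1 (0.728), the small proteoglycan Lum (0.715), Fam114a1 (0.715) and Tpst1 (0.690). Those closest to Col4a1 were Myadm (0.776), Rhoj (0.755), Dock6 (0.735), Tinagl1 (0.718) and Lamc1 (0.710), a laminin chain of basement membranes. Those closest to Col6a1 were Pcolce (0.836), the collagen receptor Mrc2 (0.815), Kdelr3 (0.814), Mmp23 (0.799) and Glis2 (0.792). These are descriptions over strain means that share their arrays and their tissue makeup, and each was picked as the highest of all genes.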

How the data were processed

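Total RNA of whole aorta had been labelled with biotin and hybridised to 1 array per sample. The values are log2 expression values deposited by the authors in 1 table of the series, made with GCOS and RMA per the submitters' processing notes. Not given in the sources used here are their versions and a build. RMA makes the arrays' distributions alike, so a shift of all genes cannot be seen. Array medians lay between 4.56 and 4.88. The number of arrays per strain limits the precision.

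After leaving out 89 control probe sets, 22327 were fitted with limma 3.58.1 in R 4.3.3, without a further filter, and p-values were adjusted over all of them (Benjamini-Hochberg, called below 0.05). Genes were named from the platform annotation where a probe set had 1 symbol (17783 probe sets), and of several probe sets the one with the highest mean was used. The strain effect and segregation were moderated F tests, ICCs came from one-way variance components with 95% F intervals, parents were contrasted in a model with 1 term per strain (93 residual degrees of freedom), and families on 1 mean per strain. Permutation tests used 100000 resamples in Python 3.11.15 with numpy 2.4.6. Array numbers fall in 2 blocks, up to 1038 (92 arrays) and from 1067 (96 arrays), which were tested as batches. What the numbers mean is not labelled. The procedures were tested on simulated data. There the strain effect recovered 99% of 100 probe sets whose strain SD equalled the array SD and 13% of 100 with 0.5 of it. Few probe sets were given a strain effect there, while 46.5% passed in the real data, so these shares do not carry over. The A/J contrast recovered 52% of 100 changed by 1 and 86% of 100 changed by 2 on the log2 scale. Those probe sets were drawn at random, so these shares need not hold for single collagen genes. The SEs of the members in that contrast differed, such as 0.21 for Col4a1 and 0.62 for Col18a1.

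The members, lists and tests were chosen with earlier results of these data known. Every member was accounted for by class. Array values or extreme strains were given for members called in the strain effect with 1 of the 12 highest ICCs, called in another comparison or brightest of their class, and the 5 most alike genes for the brightest fibrillar, type IV and other member. The split at the Xist level, the tests within blocks for families and the genes' gap in Col4a6 were chosen after the values were seen. Promoter sequences are from RefSeq, GRCm38.p6. The array of C57L/J with the lowest mean correlation with other strains (0.819) was kept. No arrays were merged as duplicates, since even the most alike pair, of BXH4/TyJ (r = 0.994), had a difference of 4.67 in 1 probe set.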

Additional observations from a re-analysis of the deposited data

Results flagged for a closer look

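In strains with 4 arrays and in the 10 strain means of the BXH family, the highest or lowest value of each member was compared with the rest of its group by Dixon's 95% limit. Of 128 such groups 8 passed the limit, and chance alone gives about 1 in 20, or 6.4. Col17a1 read 5.09 on replicate 3 of BXD19/TyJ, where the other arrays lay at 3.79 to 3.90. The squamous score was 4.04 on that array and -0.94, -0.93 and -0.36 on the others. Col6a2 read 9.09 on replicate 3 of AXB19b/PgnJ against 8.77 to 8.80, Col8a1 read 4.74 on replicate 3 of BXH4/TyJ against 4.24 to 4.28, and Col13a1 read 3.16 on replicate 1 of BXD19/TyJ against 3.55 to 3.63. Among BXH strain means, Col15a1 stood at 7.59 in BXH2/TyJ with the others at 5.63 to 6.54, and Col4a3 at 4.51 in BXH22/KccJ with the others at 3.21 to 3.70. Col17a1 stood at 4.56 in BXH10/TyJ against 3.83 to 4.12, and Col7a1 at 4.44 in BXH8/TyJ against 3.91 to 4.13. The only BXH10/TyJ array had a squamous score of 2.33. The part of squamous epithelium in the flagged Col17a1 values was not tested.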

How the results depend on the processing

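The count of 17 collagen genes with a strain effect was 14 to 18 under the alternatives tried, except within the second block of array numbers, where it was 10, and 15 to 18 when 1 strain was left out. Over all probe sets, the 10375 strain effect calls became 7433 without the thymocyte-high or squamous-high arrays. They became 6651 within the first block and 3107 within the second. The count of 0 for A/J against C57BL/6J became 1 without the thymocyte-high or squamous-high arrays, with scores as covariates, with probe sets above the median level and with the probe set of largest SD, and was 0 to 1 when 1 array was left out. For DBA/2J and C3H/HeJ it was 0 throughout. Segregation in AXB/BXA, 1 gene, became 0 without the high arrays and within each block, and 2 with covariates. Over all probe sets, the 851 calls in AXB/BXA became 230 without the high arrays and 1562 with covariates. Segregation in BXD, 3 genes, became 1 without the high arrays, 0 within the first block and 10 within the second, and was 1 to 4 when 1 strain was left out. The block covariate could not be fitted there. Over all probe sets, the 3361 calls in BXD became 1181 without the high arrays, 84 within the first block and 3096 within the second. Segregation in BXH, 0 genes, became 1 without the high arrays and with the intensity trend, 2 with covariates and with probe sets above the median level, and was 0 to 5 when 1 strain was left out. Over all probe sets, the 281 calls in BXH became 162 without the high arrays and 292 with the intensity trend. They became 411 with covariates and 239 with probe sets above the median level. The 1 gene between AXB/BXA and BXD became 0 without the high arrays, with covariates and within each block. Over all probe sets, the 495 calls there became 188 without the high arrays and 465 with covariates. For A/J against C57BL/6J, the 144 calls over all probe sets became 267 without the high arrays and 230 with covariates. With probe sets above the median level they became 134. The cause of these changes was not tested. No called result changed direction. Of the correlations that did not pass, Col11a1 with Col11a2 turned from -0.199 to 0.0902 with arrays centred on their medians, and Col9a1 with Col9a3 from 0.0815 to -0.0918 within the second block. Leaving out high arrays or using 1 block also leaves fewer arrays. No paired analysis was possible because the replicate numbers are only an order within each strain and pair no arrays across strains.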
